A study of Mus musculus with 3 samples.

Results

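The kinetochore is the protein assembly that joins each chromosome to the microtubules of the mitotic spindle, and it is built on the centromere, the stretch of chromatin marked by a special histone. Its inner layer stays on the centromere for the whole cell cycle, while its outer layer, its motors and its regulators assemble there as a cell enters mitosis. Most of the mRNAs for these proteins are known to accumulate late in the cell cycle, in G2 and mitosis, after the genes of DNA replication. Granule neuron progenitors of the cerebellum divide under Hedgehog signalling and switch on Neurod1, a transcription factor of differentiating granule neurons, as they leave the cycle.

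The 10 genes described here were Casc5, Cenpa, Cenpc1, Cenpe, Cenpf, Cenph, Ndc80, Nuf2, Incenp and Sgol2, out of 19744 genes listed in the count tables. They were chosen by name, with earlier results of these libraries known, to be followed over whole tumours and over barcodes together with Neurod1 and the genes of S phase, the phase of DNA replication. Their co-detection with Neurod1 and with S phase genes is therefore given as a description, without a test. The inner centromere is represented by Cenpa, the histone H3 variant that marks it, by Cenpc1, which binds nucleosomes holding Cenpa, and by Cenph, a subunit of the constitutive centromere network. The outer kinetochore is represented by Casc5, a scaffold that carries checkpoint proteins, and by Ndc80 and Nuf2, partner subunits of the complex that grips microtubules. Cenpe is a kinesin motor that carries chromosomes to the spindle equator, and Cenpf is a large coiled-coil protein that is recruited to kinetochores in mitosis. Incenp is the scaffold of the chromosomal passenger complex that activates Aurora B kinase, and Sgol2 is a shugoshin, a guard of cohesion at the centromere.

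Drop-seq was run on 3 medulloblastomas from G-Smo mice (hGFAP-Cre/SmoM2, C57BL/6), in which the human GFAP promoter drives Cre in neural progenitors and Cre switches on SmoM2, an always-active form of the Hedgehog signal transducer Smoothened. From postnatal day 10 each mouse was injected intraperitoneally on 5 days with 25 mg/kg palbociclib, which blocks CDK4 and CDK6, kinases that open the way into S phase; it was given as POx-palbo, and tumours were taken on postnatal day 16. All 3 tumours belong to this 1 group, so no effect of the drug was measured, and untreated tumours were not analysed here. The study addressed nanoparticle delivery of palbociclib, and the comparisons below are between barcodes within treated tumours.

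The tables held 8827, 2330 and 9802 barcodes in tumours 1, 2 and 3, with total counts of 1150463, 248617 and 1324350. Barcodes of at least 200 counts numbered 1060, 148 and 1059, and held 40.5%, 18.6% and 30.1% of all counts. All 9 granule lineage markers, Atoh1 and Neurod1 among them, had counts in every tumour. Tumour 2 stood apart from the others in depth and in mitochondrial counts, with 55 of its 148 barcodes above 10% mitochondrial counts, against 97 of 1060 in tumour 1 and 134 of 1059 in tumour 3. Between 9 and 47 barcodes per tumour carried markers of another cell type, myeloid markers in 14, 5 and 19 barcodes of tumours 1, 2 and 3 and astrocyte markers in 18 barcodes of tumour 1. Scrublet called 6 barcodes of tumour 1, 29 of tumour 2 and 6 of tumour 3 doublets, and they were kept. Between 3 and 8 barcode sequences were shared by a pair of tumours.

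Promoters of late cell cycle genes often carry a cell cycle genes homology region, CHR, and CCAAT boxes, and short stretches that hold them are shown because they are what some of the 10 genes share in sequence. The sequences are from RefSeq (mouse build GRCm38.p6), where 9 of the 10 genes had a promoter entry covering 250 bases before and 50 bases after the start. Casc5 and Sgol2 are listed there as Knl1 and Sgo2a. Searched on either strand as TTTGAA, the CHR was found in the promoters of Casc5, Cenpa, Cenpf and Ndc80, which is 4 of 9, and in 17.9% of all 32851 promoters of the same length. Each stretch runs 5′ to 3′ on the strand of its gene, with the CHR, or in Ndc80 its reverse complement, in capitals. They lie at chr2:119047138-119047167 on the plus strand (Casc5), chr5:30666890-30666919 on the plus strand (Cenpa), chr1:189688067-189688096 on the minus strand (Cenpf) and chr17:71526811-71526840 on the minus strand (Ndc80).
Casc5: agggcggttagaTTTGAAtacttcagggac
Cenpa: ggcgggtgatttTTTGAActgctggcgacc
Cenpf: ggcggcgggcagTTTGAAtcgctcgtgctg
Ndc80: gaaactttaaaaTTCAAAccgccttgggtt
In Casc5, Cenpa, Cenpf and Ndc80 the first base of the CHR stands at 32, 17, 3 and 30, counted from 1 at the start of transcription.

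The CCAAT box, searched as CCAAT on either strand, was found in the promoters of Cenpa, Cenpc1, Cenpe, Cenpf, Cenph and Sgol2, which is 6 of 9, and in 37.4% of all promoters. Sgol2 had 2 promoter entries, each with 1 box. In Cenpc1 and Cenph the only box lay after the start, at 15 and 32. Before the start the box stood in Cenpa, Cenpe, Cenpf and Sgol2, and in 33.8% of all promoters. Cenpa and Cenpf held it more than once before the start, and their stretches from 150 to 51 bases before it are printed with the boxes in capitals. They lie at chr5:30666736-30666835 on the plus strand (Cenpa, with both boxes on the opposite strand, reading ATTGG) and chr1:189688137-189688236 on the minus strand (Cenpf). A match is a description of these letters, and no factor's binding was measured.
Cenpa: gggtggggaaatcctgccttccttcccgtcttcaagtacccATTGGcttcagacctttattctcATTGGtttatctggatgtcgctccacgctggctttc
Cenpf: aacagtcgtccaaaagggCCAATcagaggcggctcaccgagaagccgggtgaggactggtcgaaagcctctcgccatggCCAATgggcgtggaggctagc

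All 10 genes were detected in all 3 tumours, with 6025 counts together. The sum of the 10 stood at 2020, 1882 and 2441 CPM in tumours 1, 2 and 3, on 2324, 468 and 3233 counts. CPM is the number of counts of a gene per 1000000 counts of the tumour or set of barcodes. Drop-seq counts tags at the 3′ end and the values are not divided by gene length, so levels are compared between tumours and sets of barcodes, not between genes. Intervals are exact Poisson or binomial 95% intervals and cover counting error only.

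At the inner centromere, Cenpa had 131, 137 and 150 CPM of the tumour total in tumours 1, 2 and 3 (139 ± 9.36, SD, n = 3), the narrowest spread of the 10. Cenpc1 had 154, 133 and 174 CPM (153 ± 20.5, SD, n = 3). Cenph had 107, 40.2 and 101 CPM (82.8 ± 37.0, SD, n = 3), and its value in tumour 2 rested on 10 counts with an interval of 19.3 to 74.0. The intervals of Cenpa and Cenpc1 overlapped across tumours, while that of Cenph in tumour 2 lay below those of tumours 1 and 3.

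At the outer kinetochore, Casc5 had 216, 326 and 280 CPM in tumours 1, 2 and 3 (274 ± 54.9, SD, n = 3). Ndc80 had 55.6, 52.3 and 84.6 CPM (64.2 ± 17.8, SD, n = 3). Its partner Nuf2 had 101, 48.3 and 115 CPM (88.0 ± 35.1, SD, n = 3), on 12 counts in tumour 2. Casc5 was therefore highest and Nuf2 lowest in tumour 2.

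Cenpe, the motor, had 348, 310 and 369 CPM in tumours 1, 2 and 3 (342 ± 30.1, SD, n = 3). Cenpf had 517, 615 and 730 CPM (621 ± 107, SD, n = 3). Incenp had 256, 101 and 258 CPM (205 ± 90.3, SD, n = 3), on 25 counts in tumour 2. Sgol2 had 135, 121 and 180 CPM (145 ± 30.8, SD, n = 3). The highest tumour exceeded the lowest 2.66-fold for Cenph, 2.57-fold for Incenp and 2.38-fold for Nuf2, in each case with tumour 2 lowest, and by 1.14-fold to 1.62-fold for the other 7 genes.

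**Figure D1:**
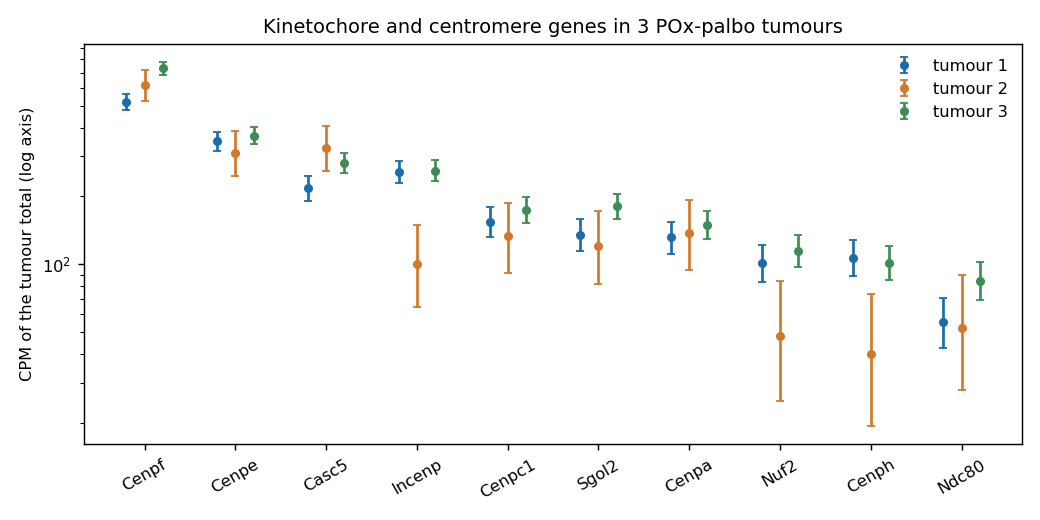
Levels in CPM of the tumour total (log axis) for the 10 genes in tumours 1, 2 and 3, with exact Poisson 95% intervals. Cenph, Incenp and Nuf2 were lowest in tumour 2, while Cenpa ranged only from 131 to 150.

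The 10 genes were unequally placed between shallow and deep barcodes. Pooled over tumours, 48.2% of Casc5 counts and 47.9% of Cenpe counts lay in barcodes of at least 200 counts, as did 45.2% for Cenpc1, 45.1% for Incenp and 43.8% for Cenpf. Sgol2 had 36.4%, Ndc80 37.0%, Nuf2 35.7% and Cenph 30.3% of counts there, and Cenpa had 26.9%. Over the 3152 genes with at least 189 counts, the median was 32.5%, the middle 50% of genes ran from 25.7% to 39.5%, and 5% of genes lay above 47.6%. Mki67, a proliferation marker, had 53.9% of its counts in the deeper barcodes, Top2a, the topoisomerase that untangles sister chromatids, had 43.8%, and Neurod1 had 27.2%.

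For Casc5 the share in the deeper barcodes was 60.2%, 40.7% and 41.8% in tumours 1, 2 and 3, above the 40.5%, 18.6% and 30.1% of all counts. Cenpa had 29.8%, 8.82% and 27.8%, below the share of all counts in each tumour. Casc5 thus had its level in deep barcodes above that of the whole tumour in all 3 tumours, and Cenpa below it. Over bins of 50 to under 100, 100 to under 200, 200 to under 500 and at least 500 counts, the sum of the 10 genes had 1591, 1732, 1986 and 3152 CPM in tumour 1. In tumour 3 it had 2243, 2152, 2471 and 4066 CPM over the same bins. In tumour 2 it had 1805, 1281, 3442 and 2082 CPM, the last on 19 counts in 9 barcodes. Cenpa, by contrast, had 164, 139, 69.5 and 123 CPM over the bins of tumour 1, and 150, 157, 116 and 178 in tumour 3.

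**Figure D2:**
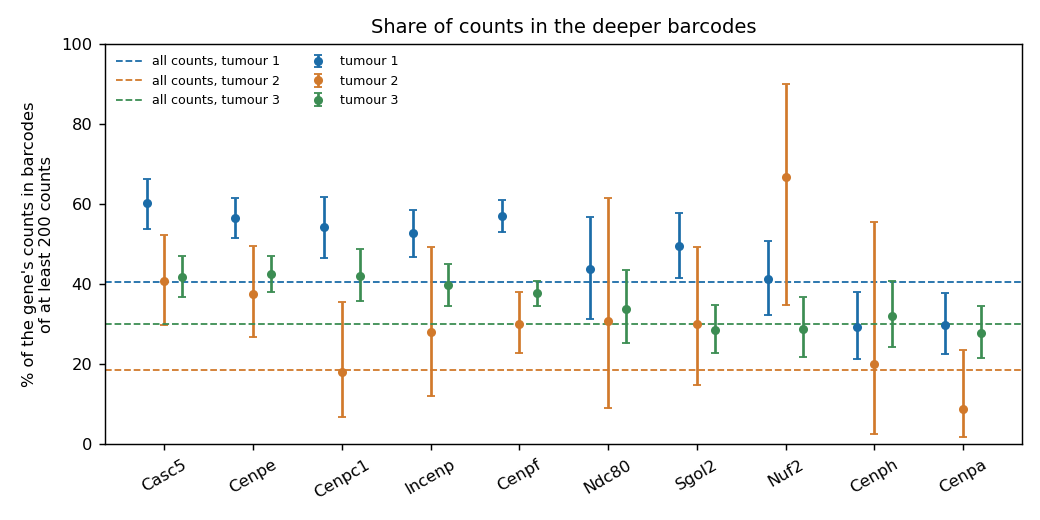
Percent of each gene's counts that lay in barcodes of at least 200 counts, in tumours 1, 2 and 3, with exact binomial 95% intervals; dashed lines give the percent of all counts in each tumour. Casc5 stood above the line of its tumour in all 3 and Cenpa below it.

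For the counts of barcodes that follow, every barcode of at least 200 counts was thinned at random to 200 UMIs, so that depth did not set detection. At least 1 UMI of the 10 genes was then found in 26.1%, 37.2% and 30.4% of barcodes of tumours 1, 2 and 3 (31.2 ± 5.56%, SD, n = 3). Without thinning the share was 36.3%, 43.2% and 41.9%. Barcodes called myeloid, which are no part of the granule lineage, had a UMI of the 10 genes in 6 of 38 cases (15.8%, exact 95% interval 6.02% to 31.3%), at a median of 436 counts. By tumour these were 1 of 14, 1 of 5 and 4 of 19 barcodes, and whether these UMIs came from free RNA was not tested.

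Barcodes with an S phase UMI, from a list of 43 genes of DNA replication that holds none of the 10, carried kinetochore mRNA more often than barcodes without. The share was 29.3%, 42.2% and 36.3% in S-positive barcodes of tumours 1, 2 and 3, against 21.7%, 29.3% and 21.6% in S-free barcodes. The difference averaged 11.7 ± 3.68 percentage points (SD, n = 3), and S-positive barcodes were higher in 3 of 3 tumours. The S-free shares lay inside the interval of the myeloid share, 6.02% to 31.3%, as did the S-positive share of tumour 1 (29.3%). Without barcodes called doublets the difference averaged 13.3 points. Median depths were 367.5, 244.5 and 302 counts in S-positive barcodes and 336.5, 258.5 and 300 counts in S-free ones before thinning. Averaged over 20 random thinnings, tried after seeing the data, the difference was 12.4 ± 3.18 points (SD, n = 3).

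Barcodes with a Neurod1 UMI carried kinetochore mRNA less often in tumours 1 and 3, while tumour 2 gave no stable direction. In the thinning used throughout, the share was 17.2%, 29.3% and 24.2% in Neurod1-positive barcodes of tumours 1, 2 and 3, against 28.5%, 40.2% and 32.9% in Neurod1-free barcodes, a difference of -10.3 ± 1.39 points (SD, n = 3), and of -9.87 points without barcodes called doublets. Over 20 thinnings it averaged -12.1 points in tumour 1 and -8.46 points in tumour 3. In tumour 2, with 41 Neurod1-positive barcodes, it averaged -0.79 points and ran between -13.1 and 11.0 points. The mean over tumours was then -7.13 ± 5.79 points.

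By both markers, the share was lowest in barcodes with Neurod1 and no S phase mRNA in each tumour. Barcodes with Neurod1 and no S phase UMI held kinetochore mRNA in 13.9%, 7.14% and 17.5% of cases in tumours 1, 2 and 3, the value of tumour 2 being 1 of 14 barcodes. Barcodes with both Neurod1 and an S phase UMI held it in 21.2%, 40.7% and 30.2% of cases. Those with an S phase UMI and no Neurod1 held it in 30.8%, 42.9% and 38.3%, and those with neither in 24.7%, 36.4% and 23.8%. The means over 20 thinnings were 16.6% for Neurod1 without S phase mRNA, 33.0% for both, 36.5% for S phase mRNA without Neurod1 and 26.5% for neither.

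The markers Mki67 and Top2a, whose mRNAs peak in G2 and mitosis, marked sets of barcodes that stood further apart than those with and without S phase mRNA, in 3 of 3 tumours and without a test. Barcodes with a UMI of either held kinetochore mRNA in 55.0%, 60.0% and 51.2% of cases in tumours 1, 2 and 3, against 18.1%, 27.2% and 22.7% of barcodes with neither. Of the barcodes with Mki67 or Top2a and no S phase UMI, called mitosis-only, 55.7%, 57.1% and 45.9% held it, against 19.7%, 28.8% and 27.8% of barcodes with S phase UMIs and neither Mki67 nor Top2a, called S-only. The difference averaged 27.5 ± 8.97 points (SD, n = 3), and 25.2 ± 1.55 points over 20 thinnings. Tumour 2 held 7 mitosis-only barcodes, against 61 in tumour 1 and 74 in tumour 3.

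**Figure D3:**
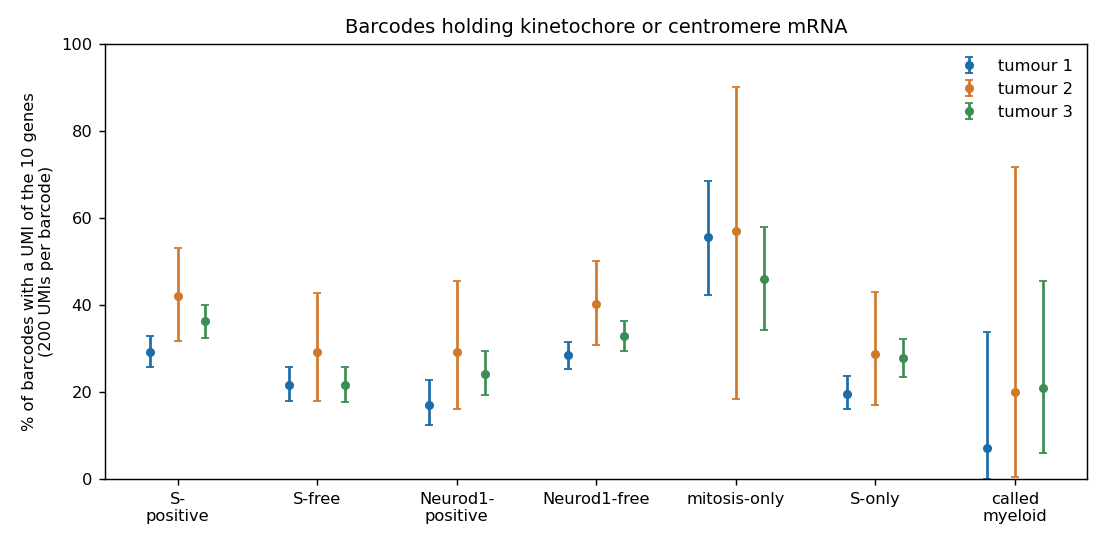
Percent of barcodes, thinned to 200 UMIs, that held at least 1 UMI of the 10 genes, by barcode set and tumour, with exact binomial 95% intervals. The mitosis-only barcodes lie between 45.9% and 57.1%, above the S-only barcodes at 19.7% to 28.8%, and barcodes called myeloid between 7.14% and 21.1%.

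For single genes, the raw counts of each set were added up within a tumour and fitted with edgeR's quasi-likelihood test with the tumour as a block. Between S-positive and S-free barcodes all 10 fitted log2 fold changes were above 0, with a median of 0.67, against -0.0027 over the 5795 genes tested. The call rule (adjusted p below 0.05) was met by Casc5, Sgol2 and Incenp, all higher in S-positive barcodes, where 0.362% of all genes were called higher. Since the choice of genes named this co-detection, nothing is read from that count.

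Casc5 had 390, 1061 and 491 CPM in S-positive barcodes of tumours 1, 2 and 3, against 222, 251 and 234 in S-free barcodes. The sets did not overlap for this scaffold, with a log2 fold change of 1.07 (SE 0.24). Sgol2 had 224, 303 and 225 CPM in S-positive barcodes, against 79.2, 50.2 and 88.5 in S-free barcodes, also without overlap, with a log2 fold change of 1.48 (SE 0.35). Incenp had 347, 227 and 487 CPM in S-positive barcodes, against 311, 50.2 and 120 in S-free barcodes. Its sets overlapped, since S-free barcodes of tumour 1 stood above S-positive barcodes of tumour 2, and its log2 fold change of 0.95 (SE 0.26) was 0.41 without tumour 3 and 2.00 without tumour 1.

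The abundant Cenpf differed less, with 733, 1250 and 1120 CPM in S-positive barcodes and 723, 653 and 607 in S-free barcodes (log2 fold change 0.50, SE 0.18). Cenph, of the inner network, had 97.5, 75.8 and 146 CPM in S-positive barcodes and 47.5, 0 and 50.6 in S-free barcodes (log2 fold change 1.32, SE 0.49). Cenpc1 had 228, 152 and 216 CPM in S-positive barcodes and 174, 100 and 284 in S-free barcodes, with the smallest fold change of the 10 (0.0033, SE 0.29). Cenpe had 470, 492 and 666 CPM in S-positive barcodes and 507, 803 and 303 in S-free barcodes, so it was higher in S-positive barcodes in tumour 3 only (log2 fold change 0.33, SE 0.21). The fitted log2 fold changes were 0.79 for Nuf2, 0.55 for Ndc80 and 0.45 for Cenpa, with SEs of 0.40, 0.47 and 0.40. In all, 7 of the 10 were higher in S-positive barcodes in 3 of 3 tumours, as were 14.8% of all genes, and 4 (Casc5, Cenpf, Cenph, Sgol2) did not overlap between the sets, as did 6.07% of all genes in that direction.

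Between Neurod1-positive and Neurod1-free barcodes all 10 log2 fold changes were below 0, with a median of -0.73, against -0.065 over the 5834 genes tested. These fold changes too are a description, and no p is given for them. Cenpf had 386, 706 and 672 CPM in Neurod1-positive barcodes of tumours 1, 2 and 3, against 806, 1086 and 1001 in Neurod1-free barcodes, without overlap (log2 fold change -0.81, SE 0.23). Nuf2 had 35.1, 0 and 78.0 CPM in Neurod1-positive barcodes and 118, 229 and 122 in Neurod1-free barcodes (log2 fold change -1.26, SE 0.53), on 11 Neurod1-positive counts in all. The motor Cenpe had 328, 441 and 419 CPM in Neurod1-positive barcodes, against 520, 686 and 558 in Neurod1-free barcodes (log2 fold change -0.58, SE 0.25).

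Casc5, Cenph, Ndc80 and Sgol2 were higher in Neurod1-positive barcodes in tumour 2 and lower in the other tumours. Casc5 had 117, 1059 and 273 CPM in Neurod1-positive barcodes of tumours 1, 2 and 3, against 368, 600 and 429 in Neurod1-free barcodes (log2 fold change -0.75, SE 0.29, and -0.20 without tumour 1). Incenp had 211, 88.2 and 214 CPM in Neurod1-positive barcodes and 360, 172 and 385 in Neurod1-free barcodes (log2 fold change -0.81, SE 0.32). Cenpc1 differed least, with 176, 88.2 and 234 CPM in Neurod1-positive barcodes and 213, 143 and 247 in Neurod1-free barcodes (log2 fold change -0.19, SE 0.34). Sgol2 had 140, 353 and 107 CPM in Neurod1-positive barcodes and 171, 143 and 193 in Neurod1-free barcodes, on 4 and 5 counts in tumour 2. Cenph and Ndc80 rested in tumour 2 on 1 and 2 counts in each set. For the remaining 4 genes the log2 fold changes were -1.17 for Cenph, -0.71 for Cenpa, -0.49 for Ndc80 and -0.39 for Sgol2, with SEs between 0.39 and 0.60. In 6 of the 10 the Neurod1-positive barcodes were lower in 3 of 3 tumours, as for 17% of all genes, and Cenpe, Cenpf and Nuf2 did not overlap, as for 6.34% of all genes in that direction.

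The contrast of mitosis-only with S-only barcodes was not itself named in choosing the genes, and here they were tested, with p adjusted over all 3113 genes. Both sets are split by the same S phase list whose co-detection was named, so these p-values are not independent of the choice. Cenpe passed. It had 1787, 1917 and 811 CPM in mitosis-only barcodes of tumours 1, 2 and 3, against 210, 318 and 420 in S-only barcodes, higher in 3 of 3 tumours and without overlap. Its log2 fold change was 1.97 (SE 0.46, edgeR adjusted p 0.0189). In tumour 1, 57 Cenpe counts came from 18 mitosis-only barcodes, of which 1 held 15, against 41 counts from 26 S-only barcodes. In tumour 2 the Cenpe values rested on 4 mitosis-only and 5 S-only counts. The call was lost without tumour 1 (log2 fold change 1.10) or tumour 3 (2.51), without the tumour block, with DESeq2 (adjusted p 0.423), with no filter on low counts and with unthinned classes, and adjusted p ran from 6.51e-11 to 1.00 over 14 alternatives.

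Only 3 of 3113 genes (0.0964%) passed in this contrast, all higher in mitosis-only barcodes, against 2 with DESeq2, and 105 had an unadjusted p below 0.05. The others were Prc1, a bundler of midzone microtubules, with a log2 fold change of 2.05 (SE 0.46, edgeR adjusted p 0.0189), and Aspm, a spindle pole protein, at 2.50 (SE 0.58, edgeR adjusted p 0.0189), which had no counts in either set of tumour 2 and is named although it was not higher in 3 of 3 tumours. Prc1, like Cenpe, did not pass without tumour 1 (log2 fold change 2.50) or without tumour 3 (2.91).

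The other 9 genes did not pass, and their intervals were wide. As for Cenpe, their p-values are not independent of the choice of genes, so nothing is read from the alternatives they passed. Cenpf had 2195, 2875 and 1507 CPM in mitosis-only barcodes of tumours 1, 2 and 3, against 363, 955 and 685 in S-only barcodes (log2 fold change 1.56, 95% interval 0.66 to 2.47, edgeR adjusted p 0.375). In tumour 1, 70 Cenpf counts came from 18 mitosis-only barcodes, with at most 15 in 1 barcode, against 71 from 40 S-only barcodes, with at most 5. The log2 fold change of Cenpf was 0.83 without tumour 1. Without tumour 2, or without barcodes called another type, it did pass (log2 fold changes 1.91 and 1.57, adjusted p 5.84e-12 and 0.00572), and adjusted p ran from 5.84e-12 to 1.00 over 15 alternatives, of which it passed 6. Casc5 had 941, 958 and 773 CPM in mitosis-only barcodes, against 261, 636 and 284 in S-only barcodes (log2 fold change 1.34, 95% interval 0.44 to 2.24, edgeR adjusted p 0.953). In tumour 1, Casc5 had 30 counts from 11 mitosis-only barcodes, with at most 10 in 1 barcode, against 51 from 25 S-only barcodes, with at most 9. It passed without tumour 2 (1.68, adjusted p 9.21e-05) and without barcodes called another type (1.68, adjusted p 0.00572), and adjusted p ran from 9.21e-05 to 1.00 over 14 alternatives, of which it passed 5. Incenp had 1003, 479 and 348 CPM in mitosis-only barcodes, against 153, 255 and 316 in S-only barcodes (log2 fold change 1.42, 95% interval 0.43 to 2.41). Its 32 mitosis-only counts in tumour 1 came from 15 barcodes, with at most 6 in 1 barcode, against 30 from 24 S-only barcodes, with at most 2. Incenp stood at 0.056 without tumour 1 and passed without tumour 2 (1.64, adjusted p 0.00198), and adjusted p ran from 0.00198 to 1.00 over 15 alternatives, of which it passed 3.

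Ndc80 had 220, 0 and 309 CPM in mitosis-only barcodes and 30.7, 127 and 71.0 in S-only barcodes, on 15 and 19 counts in all (log2 fold change 2.06, 95% interval 0.58 to 3.53). The log2 fold changes were 1.24 for Sgol2, 1.04 for Cenpc1, 0.96 for Nuf2, 0.89 for Cenpa and 0.70 for Cenph, all with intervals that reached below 0. Sgol2 passed 1 of 12 alternatives, without barcodes called another type (2.09, adjusted p 0.0340). All 10 were above 0, with a median of 1.29, against -0.17 over all genes tested, and 6 of 10 did not overlap between the sets, as for 3.15% of all genes in that direction. The mitosis-only sum of tumour 2 held 2087 counts in 7 barcodes, so 1 count there stood for 479 CPM. In it Cenpf had 6 counts, Cenpe 4, Casc5 2, and Cenpc1, Incenp and Sgol2 1 each, so their lack of overlap rested on few counts. Myeloid markers, 11 genes summed, stood at 193 to 958 CPM in mitosis-only barcodes and 552 to 1718 in S-only barcodes, with 3 of the 11 at 0 in mitosis-only barcodes. Astrocyte markers, 7 genes summed, stood at 386 to 847 CPM in mitosis-only barcodes and 127 to 373 in S-only barcodes, without overlap, with 2 at 0 in mitosis-only and 1 at 0 in S-only barcodes. The part of either list in these differences was not tested.

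**Figure D4:**
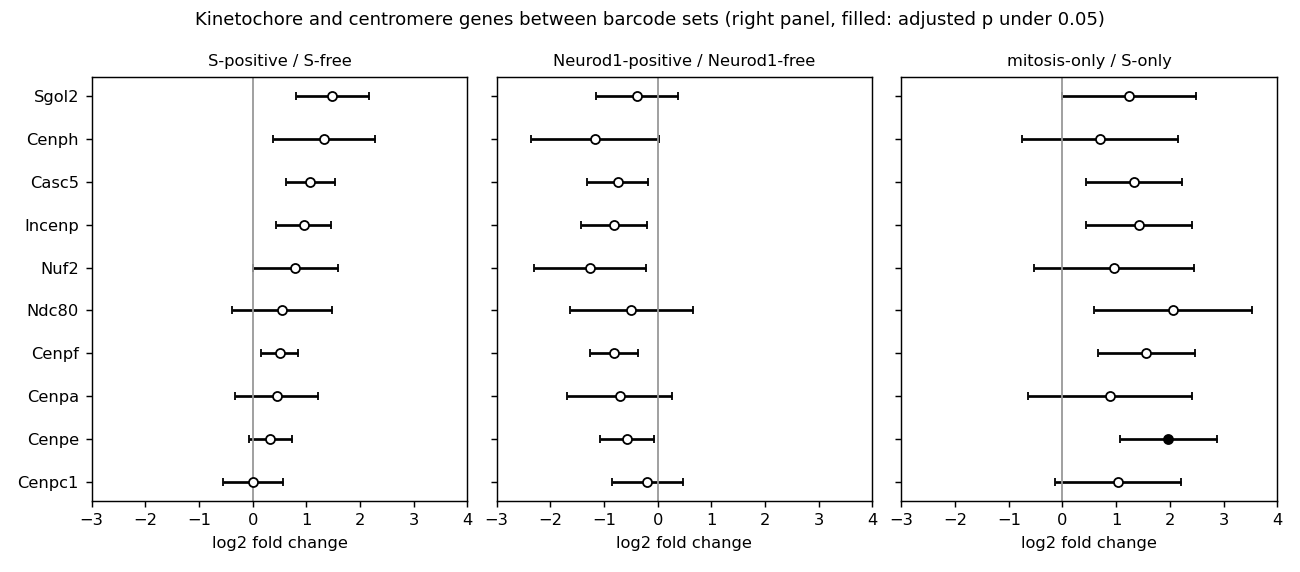
Fitted log2 fold changes with 95% intervals for the 10 genes between S-positive and S-free, Neurod1-positive and Neurod1-free, and mitosis-only and S-only barcodes. All 10 points lie above 0 on the left and the right and below 0 in the middle. A p is given for the right panel only, where Cenpe passed, and it is not independent of the choice of genes.

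Which other mRNAs accompany the 10 genes was asked by comparing the 654 barcodes that held a UMI of any of them, called kinetochore-positive, with the 1613 that held none, leaving the 10 out of the table and its totals. Mki67 and Top2a were higher in kinetochore-positive barcodes, and Apoe and Ctsd lower. Of the marker lists, 2 of 9 tested granule lineage genes, 5 of 11 myeloid, 1 of 4 vascular, 1 of 3 oligodendrocyte and 0 of 4 astrocyte genes were called lower, and none was called higher. Of 5825 genes, 78 were higher (1.34%) and 33 lower (0.567%) at an adjusted p below 0.05 by edgeR's quasi-likelihood test. Neurod1 is counted among the lower genes and the 2 granule lineage genes, and 3 S phase genes among the higher ones. Their co-detection was named in choosing the 10 genes, so nothing is read from their calls. Calls in both directions numbered 111, and 11 without tumour 1, 16 without tumour 3 and 148 without tumour 2. The genes tested then numbered 3237, 3786 and 5628, so most calls were lost without either deeper tumour. The sets differed little in mitochondrial counts, at 7.48 ± 2.73% in kinetochore-positive and 7.78 ± 3.10% in kinetochore-free barcodes (SD, n = 3).

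Mki67 had the smallest p, with 2810, 1946 and 2384 CPM in kinetochore-positive barcodes of tumours 1, 2 and 3, against 523, 728 and 769 in kinetochore-free barcodes, without overlap (log2 fold change 1.94, SE 0.15, edgeR adjusted p 9.83e-33). Top2a had 2550, 2448 and 2196 CPM in kinetochore-positive barcodes, against 631, 860 and 828 in kinetochore-free barcodes (log2 fold change 1.66, SE 0.15, edgeR adjusted p 1.04e-24). The other 10 of the 12 genes of smallest adjusted p among those higher also serve mitosis. Spindle and midzone genes rose: Prc1 by 1.93, Tpx2, which nucleates spindle microtubules, by 1.83, Hmmr by 2.10, Aspm by 2.13, and the kinesins Kif20b by 1.75 and Kif15 by 1.59 on the log2 scale. The condensin subunits Smc2 and Smc4, which compact chromosomes, rose by 1.17 and 1.18. Anln, a scaffold of the cleavage furrow, rose by 2.42 and Arhgap11a by 2.05. Of these 12 genes, Mki67, Top2a, Prc1, Tpx2 and Aspm still passed both without tumour 1 and without tumour 3.

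Among genes that were lower in kinetochore-positive barcodes, those of neurons were Ank2, an adaptor of the axonal membrane skeleton, at -1.01 (SE 0.21, edgeR adjusted p 0.000299), Nhlh1, a helix-loop-helix factor of young neurons, at -1.21 (SE 0.27, adjusted p 0.00144), and Cntn2, an adhesion molecule of migrating granule neurons, at -0.95 (SE 0.23, adjusted p 0.00286). The unnamed transcript A330076H08Rik was at -1.25 (SE 0.28, adjusted p 0.000864). Each was lower in 3 of 3 tumours. Without barcodes called another type these 4 still passed, but none did without tumour 1 or without tumour 3, where their log2 fold changes stayed below 0. Neurod1, described without a test, had 796, 1192 and 1485 CPM in kinetochore-positive barcodes, against 1615, 1819 and 2310 in kinetochore-free barcodes (log2 fold change -0.81, SE 0.15).

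Of the 12 genes of smallest adjusted p among those lower, the other 7 are known from macrophages, vessels or many cell types. Apoe, a lipid carrier, was at -1.53, the lysosomal proteases Ctsd, Ctsb and Ctss at -1.68, -1.54 and -1.98, the complement gene C1qb at -2.06 and Sepp1, a selenium carrier, at -1.71 on the log2 scale. Cldn5, a tight junction protein of vessels, had 1 count in kinetochore-positive and 56 in kinetochore-free barcodes, 24.4-fold lower for the size of the sets (counting interval 4.21 to 981), but stood at a log2 fold change of 0.17 when classes were made without thinning. Barcodes called another type made up 2.57 ± 1.04% of kinetochore-positive and 5.30 ± 2.14% of kinetochore-free barcodes (SD, n = 3). The 11 myeloid markers summed to 287 to 1120 CPM in kinetochore-positive and 846 to 3339 in kinetochore-free barcodes, none at 0 in either set, and 5 of the 11 were called lower. The 7 vascular markers summed to 147 to 498 and 374 to 1025 CPM in these sets, with 2 at 0 in kinetochore-positive barcodes. Without the barcodes called another type, Ctsd stood at 0.17, Ctsb at 0.057 and Apoe at -0.35, and none of these passed.

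From a wider list of genes of the centromere and kinetochore, 29 could be tested in kinetochore-positive against kinetochore-free barcodes, where 8 rose, none fell and 21 did not pass, while 1.34% of all 5825 genes were called higher. The median log2 fold change of the 29 was 0.92, against -0.025 over all genes tested. Hjurp, the chaperone that loads Cenpa onto centromeres, rose by 0.63 (SE 0.19, edgeR adjusted p 0.0445). Of 7 checkpoint genes, Bub1b rose by 2.29 and the kinase Ttk by 1.87. Of 4 genes of the passenger complex and cohesion guard, Aurkb, the Aurora B kinase that Incenp activates, rose by 2.31, Cdca8, another subunit, by 1.40, and Sgol1 by 1.78. Of 3 motors, Kif18a rose by 1.98 and Kif22 by 1.99.

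None of 6 tested inner centromere genes and none of 8 tested outer kinetochore genes passed, with medians of 0.65 and 0.89 on the log2 scale. Among them Spc24, a subunit of the complex of Ndc80 and Nuf2, stood at 1.20 (95% interval 0.39 to 2.01) and Ska3 at 1.97 (0.79 to 3.16), so a p that missed the threshold does not show equal levels. None of the 8 genes passed without tumour 1, where Aurkb and Bub1b fell under the minimum of counts, and all 8 passed without tumour 2. None passed without tumour 3, where Aurkb, Bub1b and Ttk fell under the minimum, and with DESeq2 none of the 7 that had an adjusted p passed. Hjurp, Ttk, Aurkb and Sgol1 did not pass without barcodes called another type, with Hjurp at 0.51 and Aurkb at 1.57. Of the 40 S phase genes in this fit, described without reading a p, 31 lay above 0, with a median of 0.38.

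**Figure D5:**
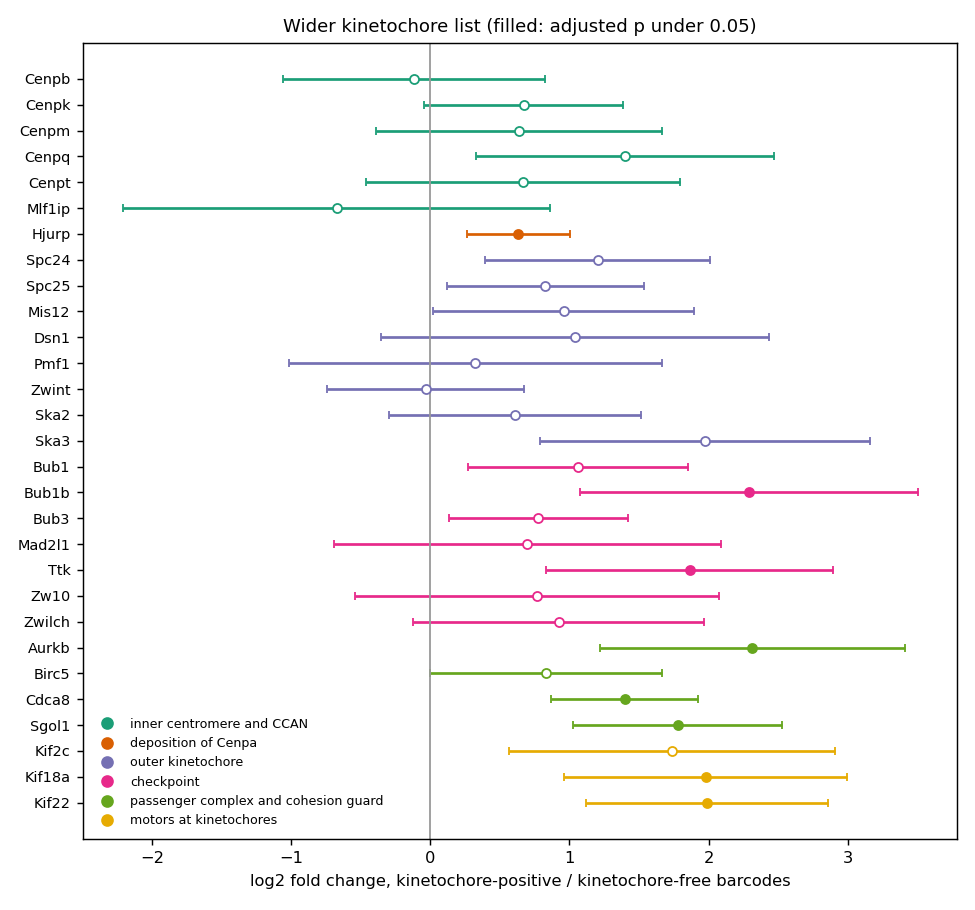
Log2 fold change with 95% interval between kinetochore-positive and kinetochore-free barcodes for 29 genes of the wider list, coloured by role; filled points had an adjusted p below 0.05. The 8 filled points belong to Cenpa deposition, checkpoint, passenger complex and motors, while the 6 inner centromere and 8 outer kinetochore points are open.

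In the contrasts that named the choice, the wider list gave 1 call each among 29 genes tested. Of all genes, 0.362% were called higher with S phase mRNA and 0.377% lower with Neurod1. Cenpk, a partner of Cenph in the inner network, had 160, 153 and 168 CPM in S-positive barcodes of tumours 1, 2 and 3, against 31.7, 100 and 82.3 in S-free barcodes (log2 fold change 1.47, SE 0.41, edgeR adjusted p 0.0366), and the call was lost without tumour 1 (0.90) or tumour 3 (1.88). Hjurp had 188, 88.7 and 255 CPM in Neurod1-positive barcodes, against 449, 286 and 690 in Neurod1-free barcodes (log2 fold change -1.38, SE 0.29, edgeR adjusted p 0.000891), and the call was lost without tumour 1 (-1.48) or tumour 3 (-1.35). Of the 29 tested genes, 27 lay above 0 between S-positive and S-free barcodes (median 0.72, against -0.0027 over all genes tested). Between Neurod1-positive and Neurod1-free barcodes 23 lay below 0 (median -0.68, against -0.065 over all genes tested). The log2 fold changes of Mki67 and Top2a were 0.99 and 1.12 between S-positive and S-free barcodes, and -0.82 and -0.78 between Neurod1-positive and Neurod1-free barcodes. All 4 passed, and none did without tumour 1 or without tumour 3.

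The sets of these 2 contrasts also differed in other cell types. Barcodes called another type made up 2.97% of S-positive and 6.53% of S-free barcodes, and 2.07% of Neurod1-positive and 5.15% of Neurod1-free barcodes, as means over tumours. Of all genes tested, 39 of 5795 were called lower with S phase mRNA and 22 of 5834 with Neurod1. All 11 myeloid markers had log2 fold changes below 0 in both contrasts, and 5 and 2 of them passed. They summed to 455 to 1667 CPM in S-positive and 1066 to 3766 in S-free barcodes, and to 257 to 1323 in Neurod1-positive and 804 to 2973 in Neurod1-free barcodes, none at 0. The 7 vascular markers summed to 189 to 287 CPM in S-positive and 354 to 1707 in S-free barcodes, and to 23.4 to 107 in Neurod1-positive and 385 to 1086 in Neurod1-free barcodes, with 2 at 0 in S-positive and 2 at 0 in Neurod1-positive barcodes. Of 4 tested, 2 were called lower with S phase mRNA and 3 with Neurod1. The 7 astrocyte markers summed to 189 to 347 CPM in S-positive and 201 to 1272 in S-free barcodes, with 1 at 0 in S-positive barcodes, and 2 of 4 tested were called lower. The 7 oligodendrocyte markers went the other way in tumour 2. They summed there to 4764 CPM in Neurod1-positive and 200 in Neurod1-free barcodes, and to 2235 in S-positive and 100 in S-free barcodes. In tumours 1 and 3 they were lower in the positive set of both contrasts, and none of 3 tested was called in either. Without the barcodes called another type the difference in kinetochore share was 11.7 points for S phase mRNA and -8.19 points for Neurod1.

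The 10 genes were found together in barcodes more often than their separate shares would give. At 200 UMIs, 76, 20 and 98 barcodes of tumours 1, 2 and 3 held at least 2 of them, against 48.4, 14.0 and 69.5 expected from the shares in each tumour, a ratio of 1.57, 1.43 and 1.41. Without barcodes called doublets, an alternative added after seeing the data, the ratio was 1.61, 1.21 and 1.33, with 13 barcodes against 10.8 expected in tumour 2. No barcode held more than 5. Over the 45 pairs, 351 joint detections stood against 161 expected, 34 pairs were above expectation, and for 10 of them the counting interval lay above 1. A barcode with more than 2 of the genes counts in several pairs, so joint detections are not separate barcodes. A barcode's UMIs share its depth and composition, so this is a description.

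Casc5 with Sgol2 had the highest ratio, 17 barcodes against 3.43 expected (4.96-fold, counting interval 2.89 to 7.94). Casc5 with Cenpe was found in 29 barcodes against 8.10 expected (3.58-fold, 2.40 to 5.14). Cenpe with Cenpf, the pair met most often, was found in 51 barcodes against 17.0 expected (3.01-fold, 2.24 to 3.95). Cenpf with Incenp had 32 barcodes against 11.1 expected, Casc5 with Cenpf 31 against 12.2, and Cenpa with Cenpf 15 against 4.57. Ndc80 with Nuf2, whose proteins form 1 complex, was not found in any barcode, against 0.576 expected. The counting interval of the ratio ran from 0 to 6.40, so at this depth the pair does not show whether the 2 mRNAs go together.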

How the data were processed

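Per the labels' protocols, cells were dissociated with papain and 3′ libraries were made by Drop-seq. The authors deposited 1 table of UMI counts of genes by barcodes per tumour, unfiltered for depth beyond a minimum of 50 genes per barcode as found in the files. The submitters' processing notes name STAR, Cell Ranger and GRCh38, with no roles or versions; since the gene symbols are of mouse, no coordinates were taken from that build. The 10 genes and the lists were chosen with earlier results of these data known.

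Barcodes of at least 200 counts were classed after thinning to 200 UMIs (at least 1 UMI of a marker, otherwise free of it). Doublets were not removed, and Scrublet calls (expected rate 6%, scanpy 1.11.5) were left out in an alternative, as were barcodes above 10% mitochondrial counts and barcodes called another type (at least 3 UMIs of at least 2 markers). The raw counts of each set were added up within a tumour, giving 6 sums per comparison, and tested with edgeR 4.0.16 in R 4.3.3 (TMM, quasi-likelihood) with the tumour as a block, because both sums came from the same animal. Genes had at least 30 counts over the 6 sums, and p was adjusted by Benjamini-Hochberg at 0.05 over all genes tested. DESeq2 1.42.0, other filters, scalings, classes and left-out tumours were alternatives, and the 20 thinnings were added after seeing the data. The test was checked on simulated counts that held no tumour effect and no counts gathered in single barcodes. That check therefore does not vouch for the p-values given here. The p-values come from 6 sums of 3 tumours, with a spread that edgeR estimates partly from all genes tested. They therefore do not measure the spread between 3 tumours alone. For Mki67 between kinetochore-positive and kinetochore-free barcodes, edgeR gave an adjusted p of 9.83e-33 with the tumour block and 0.000635 without it. DESeq2 gave an adjusted p of 3.39e-05. At this depth a gene had often under 10 counts in a sum of tumour 2.

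All 10 genes are named, with those of the wider list that passed; 1 gene of that list is not reported here and was left out of its counts. From kinetochore-positive barcodes the 12 genes of smallest adjusted p in each direction that moved alike in 3 of 3 tumours are named, and from mitosis-only barcodes those that passed.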

Additional observations from a re-analysis of the deposited data

How the results depend on the processing

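Counts of genes called were 60 (S-positive against S-free), 74 (Neurod1), 111 (kinetochore) and 3 (mitosis-only against S-only), in that order below where they differed by over 1.5 times. A minimum of 100 counts gave 13, 2, 37 and 8, and one of 500 counts gave 10, 27, 48 and 0 (9 genes at an unadjusted p below 0.05). DESeq2 gave 0 for S phase (103 at an unadjusted p below 0.05), 2 for Neurod1 and 18 for kinetochore barcodes. Without the replicate block they were 1, 8, 38 and 0 (127 unadjusted). Leaving out barcodes called another type gave 22, 34 and, for mitosis-only, 10; leaving out mitochondrial barcodes gave 45 for Neurod1 and 70 for kinetochore barcodes; leaving out doublets gave 45 for Neurod1 and 5 for mitosis-only. Unthinned classes gave 24 for S phase and 0 for mitosis-only (86 unadjusted), and another seed 7 for mitosis-only. No filter gave 38 and 0 (298 unadjusted), and filterByExpr 23 and 12, for the same 2 comparisons. A minimum of 2 S phase UMIs gave 26. Leaving out each tumour gave 1 to 125, 2 to 81, 11 to 148 and 0 to 18 (without tumour 1, 9, and without tumour 3, 11 unadjusted for mitosis-only). The cause of these shifts was not tested, beyond the smaller number of samples where a tumour was left out.

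The kinetochore share differed by 11.7 points with S phase mRNA and kept its sign in every alternative, at 2.76 points (minimum of 100), 43.9 (minimum of 500), 23.1 (unthinned) and 7.96 (at least 2 S phase UMIs), and 10.2 to 13.8 with each tumour left out. With Neurod1 it kept its sign too, at -2.51 (minimum of 100), -11.97 (minimum of 500), -13.4 (mitochondrial barcodes left out), -8.19 (other types left out), -7.48 (unthinned), -3.27 (another seed), -8.35 (any of 5 neuronal genes) and -7.13 (mean over 20 thinnings), and -11.1 to -9.82 with each tumour left out. Outside the 10 genes, reversed values were those of Ctsd (0.17) and Ctsb (0.057) without barcodes called another type and of Cldn5 (0.17) with unthinned classes. Of the 10 genes, Cenpc1, Cenpa and Cenpe kept their sign with S phase mRNA in 10, 14 and 15 of 16 alternatives. Their lowest log2 fold changes there were -0.36, -0.056 and -0.27. With Neurod1, Cenpc1 and Sgol2 each kept their sign in 15 of 16. Depth limits the rarer genes most: Cenph, Ndc80 and Nuf2 had 10 to 13 counts in tumour 2, and that tumour held 9 barcodes of at least 500 counts.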
